A study of Homo sapiens with 12 samples.

Results

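The genes described here are those of fatty acid synthesis and desaturation, and they were chosen by symbol from a list of 10 enzymes, drawn up with earlier results of these data known. The list held ACLY, ACACA, ACACB, FASN, SCD, ELOVL5, ELOVL6, FADS1, FADS2 and ME1. Of these, 9 had a row in the deposited table of 16389 genes and ME1 was not analysed here. Expression was measured by RNA-seq of poly(A) RNA from HepG2 cells, an established human liver cancer line, so that all values come from 1 line in culture and not from liver. Cells were grown in low glucose (LG, 5.5 mM) or were given high glucose (HG, 20 mM) for 48 h, and parallel cultures at each glucose level then received 1 mM valproic acid (VPA) for 12 h (LGV and HGV). VPA, a branched fatty acid used against epilepsy, inhibits histone deacetylases. Each of the 4 groups had 3 libraries. The sources do not state that these came from separate cultures, so the p-values measure the spread between these libraries, which may be technical. Nor is it stated if cells without VPA were collected at the start or the end of the 12 h treatment, and an effect of VPA cannot be told apart from one of added time in culture.

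Fatty acid synthesis turns surplus sugar carbon into fat, and the liver is one of its main sites. Citrate leaves the mitochondria and is split by ATP citrate lyase (ACLY) into acetyl-CoA, which the acetyl-CoA carboxylases (ACACA and ACACB) turn into malonyl-CoA, and fatty acid synthase (FASN) builds palmitate from it. Elongases (ELOVL5 and ELOVL6) lengthen the chain and desaturases (SCD, FADS1 and FADS2) place double bonds in it. In liver these genes are known targets of the transcription factors SREBP-1c, encoded by SREBF1 and active with insulin, and ChREBP, encoded by MLXIPL and active with glucose.

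The promoters shown are those of 5 genes that rose with glucose (SCD), with VPA (ACLY and ELOVL5) or with either (FADS1 and ELOVL6). FADS1 was called higher with VPA in low glucose only. Each is the stretch of 250 bases before the start of the main (MANE Select) transcript, 5′ to 3′ on the strand of the gene, from RefSeq on GRCh38.p14. The places are chr10:100346983-100347232 on the plus strand for SCD and, on the minus strand, chr11:61817004-61817253 for FADS1, chr17:41918952-41919201 for ACLY, chr6:53348951-53349200 for ELOVL5 and chr4:110198616-110198865 for ELOVL6. Capitals mark matches, on either strand, to the CCAAT box (CCAAT, read by NF-Y), the GC box (GGGCGG, read by SP1) and an E-box (CACGTG, which USF and ChREBP can read).
SCD: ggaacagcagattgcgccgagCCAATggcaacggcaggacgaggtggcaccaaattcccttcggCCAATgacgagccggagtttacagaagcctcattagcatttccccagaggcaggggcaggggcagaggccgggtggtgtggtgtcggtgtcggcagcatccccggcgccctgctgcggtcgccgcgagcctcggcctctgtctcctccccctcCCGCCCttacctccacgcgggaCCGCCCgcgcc
FADS1: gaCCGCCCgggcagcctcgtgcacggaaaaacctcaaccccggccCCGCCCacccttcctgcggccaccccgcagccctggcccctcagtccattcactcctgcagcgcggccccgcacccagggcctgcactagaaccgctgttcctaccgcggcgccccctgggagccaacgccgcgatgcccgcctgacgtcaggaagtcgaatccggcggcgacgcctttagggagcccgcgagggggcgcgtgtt
ACLY: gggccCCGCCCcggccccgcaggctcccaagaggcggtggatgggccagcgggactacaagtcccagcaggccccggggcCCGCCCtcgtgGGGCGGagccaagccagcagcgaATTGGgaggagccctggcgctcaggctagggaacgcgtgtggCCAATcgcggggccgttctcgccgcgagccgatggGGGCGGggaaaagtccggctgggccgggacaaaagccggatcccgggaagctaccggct
ELOVL5: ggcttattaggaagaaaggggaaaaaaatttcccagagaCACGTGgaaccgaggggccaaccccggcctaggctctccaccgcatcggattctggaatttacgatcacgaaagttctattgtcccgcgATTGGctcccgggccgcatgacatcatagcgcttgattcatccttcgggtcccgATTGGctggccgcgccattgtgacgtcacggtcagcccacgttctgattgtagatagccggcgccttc
ELOVL6: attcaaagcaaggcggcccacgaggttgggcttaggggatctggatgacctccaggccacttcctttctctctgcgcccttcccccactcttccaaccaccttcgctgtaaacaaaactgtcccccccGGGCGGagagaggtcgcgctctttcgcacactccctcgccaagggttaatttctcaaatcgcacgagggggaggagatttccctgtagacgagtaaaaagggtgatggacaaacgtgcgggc
No match to one of these motifs overlapped a match to another in these 5 stretches. SCD held 2 CCAAT boxes and 2 GC boxes, ACLY 2 CCAAT boxes and 4 GC boxes, and ELOVL5 2 CCAAT boxes with 1 E-box. FADS1 held 2 GC boxes and ELOVL6 1. ACACB and FADS2 were also called higher with glucose and are not shown. The stretch of ACACB at its main start held no match to any of these motifs, and FADS2 had no entry at its main start. A core of the sterol regulatory element (TCACNCCAC), which SREBPs can bind, was in none of the 13 promoters that the table lists for 8 of the 9 genes. FASN had no entry. Of 35116 promoters of this length, 32.0% held a CCAAT box, 42.6% a GC box, 6.34% this E-box and 0.883% the sterol core. These matches describe letters only, and say nothing on whether a factor was bound in these cells.

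Between 29798442 and 45572694 reads per library were counted on the genes of the table, and the 9 genes had from 366 to 30441 reads per library, so that none was near the limit of detection. Levels are given as CPM (reads of a gene scaled to the library's total) scaled with TMM factors of the 12 libraries, and differences as log2 fold changes from edgeR's quasi-likelihood F test with the Benjamini-Hochberg FDR over all genes tested. A gene was called at an FDR of 0.05 or less. All 9 genes passed the filter on low counts in every comparison. Hepatocyte genes were present, with 8 of 8 fixed markers in the table. Their summed level was 51482 to 58027 CPM in LG, 52213 to 59492 in HG, 46319 to 60846 in HGV and, below these, 39671 to 40624 in LGV. Of 14 markers of endothelial, blood, stromal, bile duct and fat cells, 6 were in the table, and PECAM1, PTPRC and ADIPOQ were among those with no row. The summed level of these 6 was higher with glucose and did not overlap, at 273 to 325 CPM in LG against 352 to 388 in HG, and 259 to 278 in LGV against 312 to 370 in HGV. SOX9, a bile duct marker, made up most of it, with 216 to 270 CPM in LG and 328 to 353 in HG. In bulk RNA, fewer cells that express a gene and less of its RNA per cell cannot be told apart.

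High glucose raised the desaturases SCD, FADS1 and FADS2, the elongase ELOVL6 and the minor carboxylase ACACB, by 1.37-fold to 1.80-fold, and FASN showed no detectable difference. VPA lowered FASN and ACACA at both glucose levels and raised ACLY, ELOVL5 and ELOVL6, by up to 2.34-fold. SCD was not detectably changed by VPA. Together the 9 genes took 0.163% ± 0.00722 (SD, n = 3) of the counts in LG and 0.213% ± 0.0107 (SD, n = 3) in HG. With VPA this share was 0.16% ± 0.00105 (SD, n = 3) in LGV and 0.216% ± 0.00969 (SD, n = 3) in HGV.

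**Figure D1:**
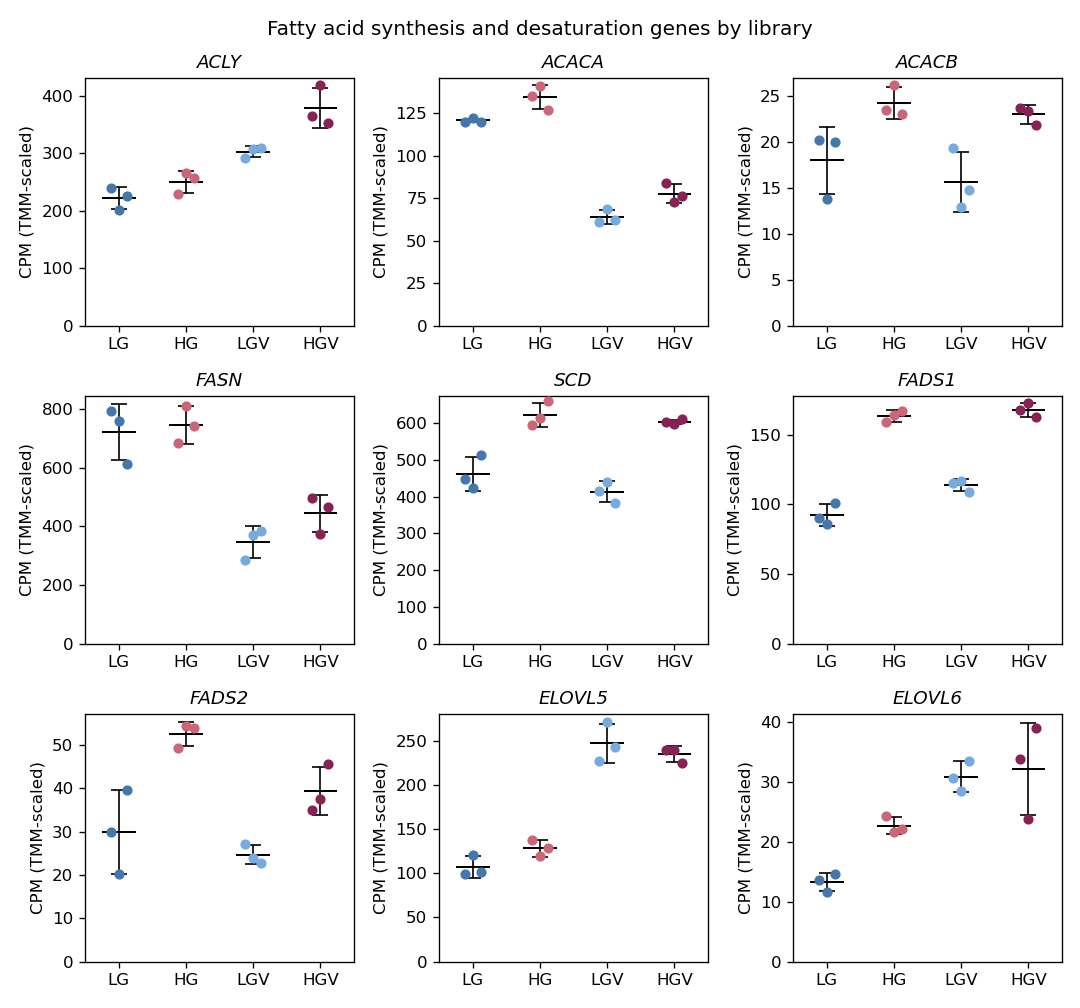
Level of each gene (CPM, TMM-scaled, linear axes from 0) in the 12 libraries, as 1 point per library, with the mean (line) and SD (bars) of each group of 3. FASN and ACACA sit lower in the LGV and HGV libraries than in all LG and HG libraries, ELOVL5 and ACLY sit higher, and SCD and FADS1 follow glucose with or without VPA.

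In the comparison of HG with LG, which asks what high glucose alone changes, 5 of the 9 genes were called higher, where 12.0% of all 15452 genes tested were. None of the 9 was called lower, against 12.7% of all genes, and none was lower at an unadjusted p under 0.05 or by DESeq2. The median log2 fold change was 0.46 over the 9 genes and 0.01 over all genes tested. Of the markers of other cell types, 3 of 4 tested (CD14, SOX9 and PLIN1) were also called higher and 1 (PDGFRB) lower, and their part in the rise of the 9 genes was not tested. In the comparison of HGV with LGV, the same glucose contrast under VPA, 4 of 9 were called higher (21.2% of 16208 genes) and none lower (19.5%), also by DESeq2, with a median of 0.34 and an all-gene median of 0.01. There 4 of 6 markers of other cell types were called higher and 1 lower. Of the 8 hepatocyte markers, 3 were called higher there and none lower, with a median log2 fold change of 0.36. For HG against LG, 1 of these 8 was called higher and none lower, with a median of 0.05. The part of these markers in the glucose differences of the 9 genes was likewise not tested. VPA in high glucose (HGV against HG) raised 3 of 9, where 25.8% of 16188 genes rose, and lowered 3, where 20.2% fell. VPA in low glucose (LGV against LG) raised 4, where 21.7% of 15944 genes rose, and lowered 2, where 19.9% fell. These 4 comparisons use each group in 2 of them, so their values stand side by side and do not count as separate evidence.

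ACLY, which makes cytosolic acetyl-CoA, is encoded on chromosome 17 (40023170 to 40086795 of GRCh37, minus strand; ENSG00000131473). It had 240, 201 and 225 CPM in the 3 LG libraries, 229, 265 and 256 in HG, 291, 307 and 309 in LGV and 364, 419 and 353 in HGV. All 6 VPA libraries lay above all 6 libraries without VPA, and the LG and HG libraries overlapped. ACLY rose with VPA by 0.46 on the log2 scale in low glucose (SE 0.12, FDR 0.00601) and by 0.60 in high glucose (SE 0.11, FDR 0.000684). The glucose difference was 0.20 without VPA (SE 0.12, FDR 0.248). It was 0.31 with VPA (SE 0.12, FDR 0.0582), where the HGV libraries lay above the LGV libraries, and there it passed the threshold with library sizes only (FDR 0.0074), by DESeq2's test (FDR 0.0355) and in one fit of the 12 libraries (FDR 0.0275). Of its exon bases, 156 are shared with a lncRNA gene on the other strand that has no row in the table. The library kit kept strand, but whether the counting used it is not stated.

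ACACA, the carboxylase that supplies malonyl-CoA for synthesis, had the tightest LG values of the 9 genes. It lies on chromosome 17 (35441927 to 35766927, minus strand; ENSG00000132142, placed by symbol). The LG libraries had 120, 122 and 120 CPM and the HG libraries 135, 141 and 127, whereas LGV had 60.7, 68.8 and 62.4 and HGV 84.0, 72.9 and 76.0. Each VPA library was below every library without VPA. ACACA fell by 0.90 on the log2 scale in low glucose (SE 0.11, FDR 1.56e-05), a 1.87-fold drop, and by 0.79 in high glucose (SE 0.1, FDR 4.31e-05), a 1.73-fold drop. HG lay above LG in every library, yet the difference of 0.18 (SE 0.12) did not pass the test (FDR 0.277). Under VPA the difference was 0.26 (FDR 0.0832), and it passed without HGV replicate 2 (FDR 0.0365).

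ACACB, the carboxylase of the mitochondrial surface, where its malonyl-CoA is known to restrain fatty acid oxidation, had the lowest mean of the 9 per length in every group. It lies on chromosome 12 (109554392 to 109706031, plus strand; ENSG00000076555). Its levels were 20.2, 13.8 and 20.0 CPM in LG, 23.5, 26.2 and 23.0 in HG, 19.3, 12.9 and 14.7 in LGV and 23.7, 23.4 and 21.8 in HGV. All high-glucose libraries exceeded all low-glucose libraries, and LG replicate 2 and LGV replicate 2 were the lowest. ACACB rose with glucose by 0.46 (SE 0.16, FDR 0.048) without VPA and by 0.53 (SE 0.15, FDR 0.00836) with it. The first call was lost with any 1 of 5 libraries left out (all but LG replicate 3, FDR from 0.064 to 0.172). The second was lost without LGV replicate 2 (FDR 0.0581). VPA gave -0.08 in high glucose (FDR 0.585) and -0.19 in low glucose (FDR 0.461), so the carboxylase of synthesis was called lower with VPA and the other was not. Their ratio of reads within a library, which needs no scaling, was 5.38 to 8.86 without VPA and 3.12 to 5.32 with it.

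FASN, the synthase itself, was the member with the most reads without VPA. Its place is chromosome 17 (80036214 to 80056170, minus strand; ENSG00000169710). LG libraries held 793, 760 and 614 CPM and HG libraries 685, 813 and 742, and these overlapped over most of their range. With VPA the levels were 284, 371 and 386 CPM in LGV and 496, 374 and 466 in HGV, all below the lowest library without VPA. FASN fell with VPA by 1.04 on the log2 scale in low glucose (SE 0.15, FDR 5.11e-05), a 2.06-fold drop, and by 0.75 in high glucose (SE 0.13, FDR 0.000382), a 1.68-fold drop. The glucose difference was 0.07 (SE 0.13, FDR 0.711), and its sign changed without HG replicate 2 (-0.01) or LG replicate 3 (-0.03). Under VPA it was 0.34 (SE 0.15, FDR 0.0722), which passed without HGV replicate 2 (0.45, FDR 0.0177), with library sizes only (FDR 0.0212) and in one fit of the 12 libraries (FDR 0.0491). Hepatocyte markers were also lower as a sum in LGV than in LG, where 5 of 8 were called lower. The sums of HGV and HG overlapped, where 1 of 8 was called higher and 1 lower. The lower one was HNF4A, a regulator that defines hepatocytes (286 to 301 CPM in HGV, 400 to 409 CPM in HG). TTR stood the other way, with 158 to 232 CPM in HGV and 125 to 153 CPM in HG. The part of these markers in the changes with VPA was not tested.

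SCD, which places the first double bond in saturated fatty acids, followed glucose whether or not VPA was present. SCD is on chromosome 10 (102106990 to 102124583, plus strand; ENSG00000099194). It measured 448, 424 and 512 CPM in LG and 594, 615 and 659 in HG, with no overlap. With VPA it measured 416, 441 and 383 in LGV and 602, 598 and 610 in HGV, again with no overlap and with the narrowest HGV spread relative to the mean of the 9 genes. SCD rose with glucose by 0.46 (SE 0.12, FDR 0.0108) without VPA and by 0.53 (SE 0.13, FDR 0.00288) with it, and both calls stood with each library left out in turn (highest FDR 0.0495 and 0.0383). VPA gave -0.05 in high glucose (SE 0.099, FDR 0.732) and -0.15 in low glucose (SE 0.13, FDR 0.378). Without TMM factors (library size only) these were 0.08 and 0.01, so no direction is given.

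FADS1, a desaturase of polyunsaturated fatty acids, had the lowest FDR of the 9 genes for glucose alone. Its gene is on chromosome 11 (61567099 to 61596790, minus strand; ENSG00000149485). The LG libraries had 90.2, 85.5 and 101 CPM and the HG libraries 159, 164 and 167. FADS1 rose 1.80-fold, by 0.84 on the log2 scale (SE 0.12, FDR 7.88e-05). LGV, at 115, 117 and 109 CPM, lay above LG and below HG, and HGV, at 168, 173 and 163, overlapped HG. The glucose difference under VPA was 0.54 (SE 0.11, FDR 0.00112). VPA gave 0.04 in high glucose (SE 0.092, FDR 0.746). It gave 0.31 in low glucose (SE 0.12, FDR 0.0429), a call that was lost when any 1 of 5 libraries was left out (all but LG replicate 3, FDR from 0.0709 to 0.126) and with DESeq2's size factors (FDR 0.0501).

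FADS2, the desaturase that acts before FADS1 in the making of arachidonic and related acids, is its neighbour on chromosome 11 (61560452 to 61634826, plus strand; ENSG00000134824). The annotated genes overlap on opposite strands in 490 exon bases, 4.79% of the exons of FADS1 and 4.64% of those of FADS2, and reads there cannot be told apart if strand was not used. FADS2 shares a further 49 bases with FEN1 on the same strand. FADS2 had 29.9, 20.1 and 39.7 CPM in LG, the widest spread of the 9 genes in that group relative to the mean, and 49.4, 54.3 and 54.0 in HG. It had 27.1, 24.0 and 22.8 in LGV and 35.0, 37.5 and 45.6 in HGV, so that high glucose lay above low glucose with and without VPA. FADS2 rose with glucose by 0.84 (SE 0.18, FDR 0.0029) without VPA and by 0.66 (SE 0.13, FDR 0.000797) with it. VPA lowered it in high glucose by 0.42 on the log2 scale (SE 0.12, FDR 0.0126), with no overlap between HG and HGV. That call was lost without HG replicate 3 (FDR 0.052) or HGV replicate 1 (FDR 0.0632), with library sizes only (-0.30, FDR 0.0671) and in one fit of the 12 libraries (FDR 0.0576). In low glucose the value was -0.27 (SE 0.2, FDR 0.303), and it depended on 2 LG libraries: -0.49 without LG replicate 2 (FDR 0.0128) and 0.01 without LG replicate 3 (FDR 0.959).

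ELOVL5, which lengthens polyunsaturated chains, had the largest change with VPA of the 9 genes in high glucose. It lies on chromosome 6 (53132196 to 53213977, minus strand; ENSG00000012660). Its LG libraries measured 98.8, 121 and 101 CPM and its HG libraries 138, 119 and 128. VPA brought these to 227, 271 and 243 CPM in LGV and 240, 240 and 225 in HGV. Every VPA library was well above every library without VPA. ELOVL5 rose 2.33-fold in low glucose (log2 fold change 1.22, SE 0.13, FDR 3.38e-06) and 1.83-fold in high glucose (0.87, SE 0.099, FDR 1.65e-05). HG and LG overlapped, with a difference of 0.28 (SE 0.12, FDR 0.1) that passed without LG replicate 2 (0.41, FDR 0.0296) or with library sizes only (0.38, FDR 0.0251). HGV and LGV overlapped too, at -0.09 (FDR 0.585).

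ELOVL6, which lengthens palmitate towards stearate, was the only one of the 9 genes called higher both with glucose alone and with VPA at both glucose levels. It lies on chromosome 4 (110967002 to 111120355, minus strand; ENSG00000170522) and shares 240 exon bases with a lncRNA gene on the other strand that has no row in the table. It measured 13.7, 11.7 and 14.6 CPM in LG and 24.3, 21.7 and 22.2 in HG, and 30.7, 28.5 and 33.6 in LGV and 33.8, 23.8 and 39.0 in HGV. The LG libraries were the lowest, and only HGV replicate 2 reached into the range of HG. ELOVL6 rose with glucose by 0.79 (SE 0.15, FDR 0.00111). It rose with VPA by 1.23 in low glucose (SE 0.14, FDR 8.28e-06) and by 0.50 in high glucose (SE 0.16, FDR 0.0223). The last call was lost without HG replicate 2 (FDR 0.0689), HG replicate 3 (FDR 0.0627), HGV replicate 1 (FDR 0.0729) or HGV replicate 3 (FDR 0.113). With VPA present, glucose made a difference of 0.04 (SE 0.15, FDR 0.868), whose sign changed with HGV replicate 3 or LGV replicate 2 left out (-0.12 and -0.02).

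**Figure D2:**
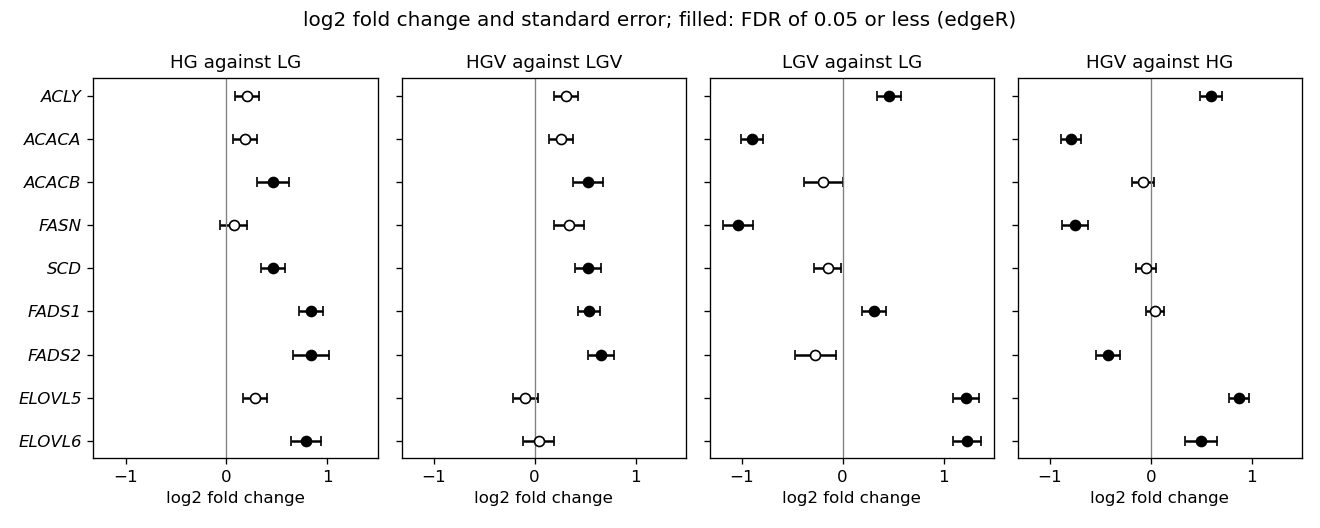
Log2 fold change (points) and standard error (bars) of the 9 genes in the 4 comparisons, from edgeR, with filled points where the FDR was 0.05 or less and open points otherwise. The desaturases and ACACB are filled to the right of 0 in both glucose comparisons on the left, and FASN and ACACA are filled to the left of 0 in both VPA comparisons on the right.

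Whether the effect of VPA depended on glucose was tested with an interaction term over the 12 libraries. None of the 9 genes was called, where 7 of 16389 genes were (0.0427%), and DESeq2's Wald test called none of the 9 either. At an unadjusted p under 0.05 there was 1, ELOVL6, with an interaction of -0.71 on the log2 scale (SE 0.22, unadjusted p 0.00394 and FDR 0.187 from edgeR). Next were ELOVL5 at -0.33 (FDR 0.443) and FADS1 at -0.26 (FDR 0.528), and FASN had 0.31 (FDR 0.594). The larger change of ELOVL6 and FASN in low than in high glucose was thus not shown to be a difference between the glucose levels.

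Levels of different genes were compared per length, as CPM per kb of the MANE Select transcript. In LG, SCD had 88.0 ± 8.7 and FASN 85.3 ± 11.2 CPM per kb (SD, n = 3), and their libraries overlapped. ACLY followed with 51.7 ± 4.67, then ELOVL5 with 38.7 ± 4.5 and FADS1 with 21.2 ± 1.89 CPM per kb. ACACA with 12.0 ± 0.124 and FADS2 with 9.67 ± 3.18 CPM per kb overlapped, as did ELOVL6 with 2.03 ± 0.229 and ACACB with 1.92 ± 0.388. In HG, SCD stood above FASN in all libraries, at 119 ± 6.31 against 88.3 ± 7.58 CPM per kb, and FADS2 stood above ACACA, at 17.0 ± 0.895 against 13.4 ± 0.712.

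The order changed with VPA. In LGV, ELOVL5 had 89.3 ± 7.94 CPM per kb, overlapping SCD with 78.8 ± 5.58, and ACLY had 70.4 ± 2.28, whereas FASN had 41.0 ± 6.47 and was lower than these 3 in every library. In HGV, SCD stayed first with 115 ± 1.16 CPM per kb, above ACLY with 88.2 ± 8.26 and ELOVL5 with 85.0 ± 3.08, which overlapped, and FASN had 52.6 ± 7.47. ACACB remained last in both groups, with 1.67 ± 0.35 CPM per kb in LGV and 2.45 ± 0.11 in HGV.

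Ratios of reads within a library depend on neither the scaling nor the depth. ACLY had 0.303, 0.264 and 0.366 reads per read of FASN in LG and 0.334, 0.326 and 0.345 in HG. With VPA the ratio was 1.02, 0.829 and 0.8 in LGV and 0.734, 1.12 and 0.757 in HGV, so the least of the VPA libraries was above the highest of the others. For ELOVL5 the ratio to FASN was 0.125 to 0.201 without VPA and 0.483 to 0.799 with it. The ratio of ACACA to FASN, in contrast, was 0.151 to 0.213 over all 12 libraries, and the ranges of all 4 groups overlapped.

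**Figure D3:**
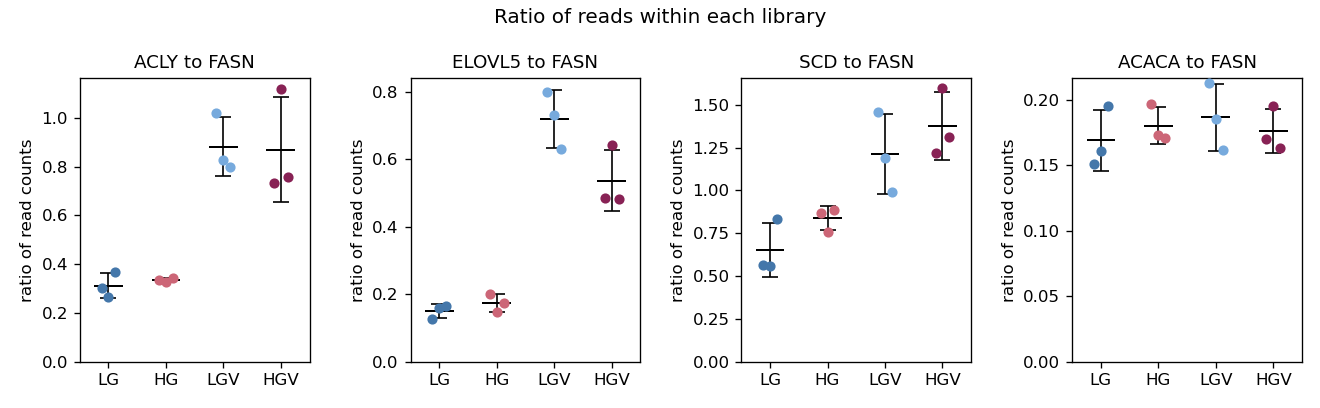
Ratio of read counts to those of FASN within each library (points; linear axes from 0) for ACLY, ELOVL5, SCD and ACACA, with the mean (line) and SD (bars) of each group of 3. The first 3 panels show no overlap between libraries with and without VPA, and the ACACA panel shows overlap of all 4 groups between 0.151 and 0.213.

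Of 73 other genes of the pathway, in 7 lists, 70 were in the table. Glucose raised 11 of 67 tested (16.4%, where 12.0% of all genes rose) and lowered 10 (14.9%, where 12.7% fell). Under VPA it raised 18 of 70 (25.7%, against 21.2%) and lowered 16 (22.9%, against 19.5%). VPA raised 19 of 70 in high glucose (27.1%, against 25.8%) and lowered 21 (30.0%, against 20.2%), and it raised 14 in low glucose (20.0%, against 21.7%) and lowered 24 (34.3%, against 19.9%). No list member was called for the interaction by edgeR.

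The regulators SREBF1 and MLXIPL fell with VPA and did not pass the test for glucose alone. SREBF1 had 77.6, 67.6 and 67.7 CPM in LG, 55.3, 65.3 and 61.5 in HG, 24.9, 29.5 and 35.9 in LGV and 35.4, 31.1 and 39.9 in HGV, with no overlap between libraries with and without VPA. SREBF1 fell by 1.23 on the log2 scale in low glucose (SE 0.14, FDR 7.3e-06) and by 0.78 in high glucose (SE 0.12, FDR 0.000205), and HG differed from LG by -0.20 (FDR 0.259). MLXIPL fell by 0.81 (SE 0.13, FDR 0.000172) and 0.64 (SE 0.12, FDR 0.00104), with 0.23 for HG against LG (FDR 0.191). SREBF2, whose product mainly drives cholesterol synthesis, rose with glucose instead, by 0.67 without VPA (SE 0.12, FDR 0.000638) and 0.81 with it (SE 0.12, FDR 7.03e-05). Of the 18 regulators in the table, glucose raised 1 and lowered 5 without VPA, where 12.0% of all genes rose and 12.7% fell. Under VPA it raised 4 and lowered 5, where 21.2% rose and 19.5% fell. Over the same 18, VPA raised 2 and lowered 9 in high glucose, where 25.8% of all genes rose and 20.2% fell. It raised 1 and lowered 8 in low glucose, where 21.7% rose and 19.9% fell. The coactivator PPARGC1B rose with VPA by 2.40 in low glucose (SE 0.31, FDR 2.7e-05) and 2.21 in high glucose (SE 0.2, FDR 2.48e-06), whereas NFYC, a subunit of the CCAAT-binding factor NF-Y, fell by 1.16 and 0.99 (FDR 1.8e-06 and 6.28e-06). NFYA, another subunit, stood higher in HGV (49.4 to 58.4 CPM) than in HG (35.6 to 41.5 CPM), and its LG and LGV libraries overlapped. For the subunit NFYB, libraries with and without VPA overlapped at both glucose levels. NFYA and NFYB were named after their values were seen. INSIG2, which holds SREBPs in the endoplasmic reticulum, fell with glucose by 0.74 under VPA (SE 0.13, FDR 0.000284) and by 0.57 without VPA. The latter call was lost without HG replicate 3 or LG replicate 2 (-0.29 and FDR 0.142 without LG replicate 2). The listed regulator SCAP was also lower in HG (137 to 156 CPM) than in LG (161 to 236 CPM). So was MBTPS1, with 211 to 212 CPM in HG and 247 to 306 CPM in LG. SCAP and MBTPS1 were named after their values were seen.

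Carbon and reducing power are supplied to synthesis by other enzymes. ACSS2, which makes acetyl-CoA from acetate, was at 41.2, 36.9 and 44.5 CPM in LG and 81.3, 79.0 and 90.9 in HG. ACSS2 rose with glucose by 1.06 on the log2 scale (SE 0.13, FDR 1.31e-05), more than any of the 9 genes, and by 0.57 under VPA (SE 0.12, FDR 0.000806). SLC25A1, the mitochondrial citrate carrier, rose with glucose by 0.78 under VPA (SE 0.12, FDR 7.35e-05) and by 0.38 without it (FDR 0.0428), the latter lost without HG replicate 2, HG replicate 3 or LG replicate 2 (FDR up to 0.147). It fell with VPA by 0.69 in low glucose (SE 0.13, FDR 0.000585). MDH1, the cytosolic malate dehydrogenase, rose with VPA by 0.86 and 1.07 (FDR 5.47e-05 and 3.81e-06). Among 9 supply genes, VPA raised 2 and lowered 2 in high glucose (25.8% and 20.2% of all genes), and raised 2 and lowered 4 in low glucose (21.7% and 19.9%).

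PGLS, an enzyme of the pentose phosphate pathway, which makes NADPH, fell with VPA by 0.96 on the log2 scale in low glucose (SE 0.13, FDR 2.96e-05) and by 0.84 in high glucose (SE 0.12, FDR 0.000134). IDH1, another source of NADPH, fell with glucose by 0.47 under VPA (SE 0.12, FDR 0.00564). Of 4 genes of cytosolic NADPH supply, VPA raised 1 and lowered 2 in high glucose (25.8% and 20.2% of all genes). In low glucose it also raised 1 and lowered 2 (21.7% and 19.9%). Glucose raised none and lowered 1 without VPA (12.0% and 12.7%), and likewise with it (21.2% and 19.5%).

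**Figure D4:**
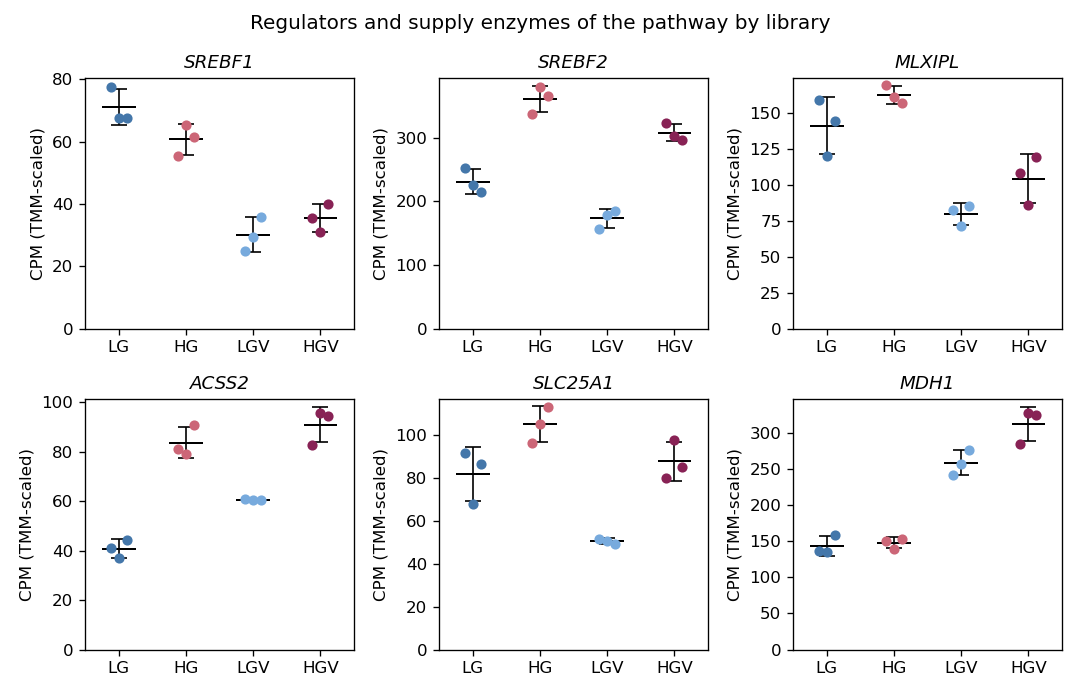
Level (CPM, TMM-scaled, linear axes from 0) of 3 regulators (SREBF1, SREBF2, MLXIPL) and 3 supply enzymes (ACSS2, SLC25A1, MDH1) in the 12 libraries, with the mean (line) and SD (bars) of each group of 3. SREBF1 and MLXIPL are lower and MDH1 is higher in all LGV and HGV libraries than in all LG and HG libraries, and SREBF2 is higher in HG than in LG.

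Elongases and desaturases outside the 9 included genes that were near absence without VPA. ELOVL3 had 0, 2 and 4 reads in LG and 9, 6 and 6 in HG, and 91, 89 and 108 reads in LGV and 192, 378 and 231 in HGV. ELOVL4, an elongase of very long chains, had 7, 9 and 11 reads in LG and 5, 5 and 2 in HG, and 450, 500 and 485 in LGV and 355, 469 and 314 in HGV. SCD5, the other human stearoyl-CoA desaturase, had 0 to 3 reads in the libraries without VPA and 19 to 48 with it, and no fold is given because 3 reads were taken as the floor. All 3 had a mean under 10 reads in LG and in HG and passed the filter through their libraries with VPA. A call of higher with VPA was therefore largely fixed by the filter, and none is counted as support. They are also among the list genes counted above as raised by VPA. FADS3, a relative of FADS1 and FADS2 that lies beside them, rose with VPA by 0.73 in low glucose (SE 0.15, FDR 0.00146) and 0.95 in high glucose (SE 0.11, FDR 1.55e-05). With glucose FADS3 fell by 0.55 without VPA (FDR 0.0165) and by 0.36 with it (FDR 0.0208), the direction opposite to FADS1 and FADS2. These calls were lost without any 1 of HG replicate 1, HG replicate 3 and LG replicate 1 (-0.34 and FDR 0.167 without the last), or of HGV replicates 1 and 3 and LGV replicates 2 and 3 (FDR up to 0.116). ELOVL2, which acts after ELOVL5 on polyunsaturated chains, had 118 to 150 CPM without VPA and 152 to 194 with it. Its change with VPA was 0.33 in high glucose (SE 0.099, FDR 0.0157), lost without HG replicate 2 or HG replicate 3 (FDR up to 0.0866), and 0.23 in low glucose (FDR 0.159). For HG against LG, none of 8 elongation genes tested was called higher and 2 lower, where 12.0% and 12.7% of all genes were. Of 4 desaturation genes tested, 1 was called higher and 1 lower. Under VPA, glucose raised 1 and lowered 4 of 10 elongation genes (21.2% and 19.5% of all genes). It raised 2 and lowered 1 of 5 desaturation genes. In high glucose, VPA raised 4 and lowered 1 of the elongation genes (25.8% and 20.2%), and raised 4 desaturation genes and lowered none. In low glucose, it raised 3 and lowered 1 of the elongation genes (21.7% and 19.9%), and raised 3 desaturation genes and lowered none. These VPA counts include ELOVL3, ELOVL4 and SCD5.

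Of 17 genes of carboxylase control and acyl-CoA handling, glucose raised 5 and lowered 1, where 12.0% of all genes rose and 12.7% fell. Under VPA it raised 5 and lowered 4 (21.2% and 19.5%). VPA raised 4 and lowered 6 in high glucose (25.8% and 20.2%), and raised 4 and lowered 7 in low glucose (21.7% and 19.9%). ACSL1, which activates fatty acids to their CoA forms, fell with glucose by 1.01 on the log2 scale (SE 0.14, FDR 7.09e-05) and rose with VPA in high glucose by 1.02 (SE 0.098, FDR 4.39e-06). ACSL4, which prefers arachidonic acid, rose with glucose by 0.83 (SE 0.13, FDR 0.000239). FABP1, the liver fatty acid binding protein, rose with glucose under VPA by 1.36 (SE 0.15, FDR 4.17e-06) and fell with VPA in low glucose by 1.02 (SE 0.25, FDR 0.00449). The value was -0.53, still called, without LG replicate 3, which had 344 CPM against 186 and 130 in the other LG libraries. PRKAG2, a subunit of the AMP-activated kinase that inhibits the carboxylases, rose with VPA by 1.55 in low and 1.63 in high glucose (FDR 2.79e-05 and 3.15e-05), from 1.98 to 2.45 CPM without VPA to 5.92 to 8.89 CPM with it. Other subunits went the other way: PRKAB2, at 214 to 294 CPM without VPA and 129 to 192 with it, fell by 0.49 and 0.86 (FDR 0.0059 and 2.53e-05), and PRKAG1 fell by 0.57 and 0.54 (FDR 0.00256 and 0.00481). PRKAB2 and PRKAG1 were named after their values were seen. In the separate mitochondrial route of fatty acid synthesis, HSD17B8 and MECR rose with glucose under VPA by 1.63 (SE 0.18, FDR 3.45e-06) and 1.26 (SE 0.19, FDR 5.18e-05), and 3 of the 7 genes of that route were called higher there and none lower, where 21.2% of all genes rose and 19.5% fell.

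The genes with the pattern most like that of FASN were taken by Pearson r of log2 CPM over the 12 libraries, as a description that the 4 groups largely set. They were GANAB (r = 0.982), ACACA (0.959), SREBF1 (0.959), CRTC1 (0.958) and SGK1 (0.957), so that 1 of the 9 genes and 1 listed regulator were among the 5. For SCD they were TNNI2 (0.981), SENP8 (0.971), TDP1 (0.968), IDI1 (0.968) and MT-CO3 (0.966), with none of the 9 genes among them.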

How the data were processed

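Per the labels and the study's methods, the authors trimmed single-end reads of stranded poly(A) libraries, aligned them to GRCh37 with STAR and took counts of reads on Ensembl genes with featureCounts. They deposited raw counts without normalization, and left out genes with a mean under 10 reads. The submitters' processing notes also name bcl2fastq 2.17.1.14. Whether counting used strand is not given in the sources used here. The labels name no batch.

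The counts were compared by edgeR 4.0.16 (R 4.3.3; TMM, quasi-likelihood F test) on genes with a mean of at least 10 reads in the libraries compared, and adjusted by the Benjamini-Hochberg method (threshold 0.05). The interaction used all 12 libraries. The standard error is the log2 fold change divided by the square root of F. CPM were scaled with TMM factors (0.879 to 1.095), and 3 reads, taken as a floor for counting error only, stood for 0.0713 to 0.112 CPM. No replicates were found to be duplicates. Genes were placed with GENCODE on GRCh37, and promoters came from RefSeq on GRCh38.p14. Plots used matplotlib 3.10.9, and tables pandas 2.3.3 in Python 3.11.15.

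The enzymes and gene lists were chosen with earlier results of these data known. The genes named besides the 9 were at most 2 per list and comparison with the largest change among those called, plus SREBF1, MLXIPL, SCD5 and ELOVL2, and the 5 most like FASN and the 5 most like SCD. Values of such genes in other comparisons are given where they help to read these. INSIG1, THRSP and PTPLAD2 were not analysed here. Of the genes this rule takes, 1 is not reported here. Alternatives were the size factors of DESeq2 1.42.0 and its Wald test, library size only, all genes unfiltered, a filter of 1 CPM in 3 libraries, a block for replicate number, all 12 libraries in one fit, an FDR of 0.01, and leaving out each library in turn.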

Additional observations from a re-analysis of the deposited data

How the results depend on the processing

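The number of the 9 genes called stayed within 1.5 times the main count in all alternatives but these. For HG against LG it was 3 in place of 5 at an FDR of 0.01. For HGV against LGV it was 7 in place of 4 with library size only and in one fit of 12 libraries, with ACLY, ACACA and FASN added. Over all genes, an FDR of 0.01 left 1852 of 3813 genes for HG against LG, 4263 of 6604 for HGV against LGV and 1 of 7 for the interaction. The interaction also gave 1 gene with library size only, 153 by DESeq2's test, and 1 to 217 with a library left out, of which the most were without LG replicate 2 (217), LG replicate 3 (67) and LGV replicate 1 (22). Leaving out a library gave 1933 genes (without LG replicate 1) to 5338 for HG against LG, with 2076 without HG replicate 3. The cause of these shifts was not tested, except that an FDR of 0.01 is stricter by construction.

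Of the values of single genes, 295 kept direction and call with a library left out (17 lost the call, 4 gained it and 8 changed sign), and 326 did under the other alternatives (10, 11 and 4). Values that changed sign were all uncalled under that setting. With a library left out, FASN ran from -0.03 to 0.16 for HG against LG (-0.01 without HG replicate 2), FADS1 from 0.0 to 0.06 for HGV against HG, FADS2 from -0.49 to 0.01 for LGV against LG and ELOVL6 from -0.12 to 0.22 for HGV against LGV (-0.02 without LGV replicate 2). The interaction of FADS2 ran from -0.4 to 0.05 and that of ACACB from -0.03 to 0.29. With library size only, the changed values were ACACB (0.04) and SCD (0.08) for HGV against HG, SCD for LGV against LG (0.01) and ELOVL5 for HGV against LGV (0.0). Library size moved the median of all genes from 0.01 to 0.11 for HG against LG, from 0.02 to 0.15 for HGV against HG, from -0.01 to 0.16 for LGV against LG and from 0.01 to 0.1 for HGV against LGV.

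Libraries that share a replicate number did not deviate together in every pair (correlations from -0.2 to 0.29 across genes), so the numbers were not taken to pair them. With replicate number as a block, 3351 genes in place of 3813 were called for HG against LG and 7308 in place of 6604 for HGV against LGV. For VPA the counts were 8229 in place of 7456 in high glucose and 6971 in place of 6638 in low glucose, and for the interaction 13. Under the block ACACB was no longer called for HG against LG (FDR 0.0626), and ACLY (FDR 0.03) and FASN (FDR 0.0211) were called for HGV against LGV, so that 4 and 6 of the 9 genes were called there. The block changed no other call of the 9 genes.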

Other observations

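FADS1 and FADS2 lie next to each other and were both called higher with glucose, with and without VPA, but stood differently under VPA. The ratio of FADS1 to FADS2 reads within a library was 3.22, 3.03 and 3.09 in HG and 4.81, 4.61 and 3.57 in HGV, with no overlap. In LG it was 3.02, 4.26 and 2.55 and in LGV 4.24, 4.89 and 4.78, where LG replicate 2 reached just into the range of LGV. The ratio of SCD to FASN was 0.558 to 0.888 in the 6 libraries without VPA and 0.991 to 1.6 in the 6 with it. The genes lie on opposite strands, and whether counting used strand is not stated.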
